A study of Homo sapiens with 3 samples.

Results

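A set of 194 genes separated the prostate cancer line LNCaP from the prostate cancer line VCaP in single-cell RNA data, whether or not the VCaP cells had received drug. UMIs (unique molecular identifiers, 1 per captured transcript) were summed over the cells of each library and scaled to CPM (counts per 1000000 UMIs of the library). A gene belonged to the set when its CPM in the LNCaP library was at least 8-fold above, or at least 8-fold below, that of each VCaP library, with at least 50 CPM in the higher line. Of the 33423 genes in the files, 4127 reached that minimum and 194 met the rule, which is 4.7%. In the LNCaP direction 115 of 3894 genes qualified (2.95%), and in the VCaP direction 79 of 2405 (3.28%), where the minimum was asked of both VCaP libraries. With 50 CPM asked of only 1 VCaP library, 118 genes qualified in the VCaP direction. The genes were selected on these CPM, so the ratios between the lines are given as a description and without a test.

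The libraries were made by Drop-seq, which captures single cells in droplets with barcoded beads and counts transcript ends. For LNCaP-ENZ168 the cells were kept for 168 h in 10 µM enzalutamide (ENZ), a drug that blocks androgen signalling. For VCaP parental they were kept for 48 h in 0.1% DMSO, the vehicle, and for VCaP-ENZ48 for 48 h in 10 µM ENZ. LNCaP was grown in RPMI 1640 and VCaP in DMEM, each with 10% fetal bovine serum. Line, medium and time in drug differed together and cannot be told apart, nor can any difference in when the libraries of each line were made, and no LNCaP library without drug was analysed here. With 1 library per group there was no replicate to compare with and no test was made, and every interval covers counting error only.

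LNCaP and VCaP are established lines from metastases, and both respond to androgen, the hormone that drives prostate secretory genes such as the kallikreins. They differ in the ETS transcription factor that is switched on by rearrangement. In VCaP the androgen-responsive start of TMPRSS2 is fused to ERG, and in LNCaP the ETV1 gene has been moved to another chromosome. VCaP came from bone and LNCaP from a lymph node, and their genomes carry different deletions and gains.

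After filtering, 944 to 997 cells remained per library, with a median of 5389 UMIs per cell in LNCaP-ENZ168, 17817 in VCaP parental and 11224 in VCaP-ENZ48. The libraries totalled 6313283, 19515202 and 14301287 UMIs, so that a count of 0 allows up to 0.475, 0.154 and 0.21 CPM in that order. Mitochondrial transcripts took 8.94%, 6.24% and 7.49% of UMIs. The libraries shared 0 cell barcodes. A list of 16 markers of prostate luminal epithelium had 13 or 14 genes over 50 CPM and 0 genes at 0 in each library, and its summed level ranged from 4418 to 7322 CPM. The basal markers KRT5, KRT17 and TP63 were at 0 in all 3 libraries. Summed markers of basal epithelium, endothelium, immune and erythroid cells stayed between 0 and 4.97 CPM, and fibroblast markers between 6.81 and 26.6 CPM. Among the latter, COL1A2 was at 0 in all 3 libraries and LUM gave 0.317, 21 and 25.2 CPM in the order above.

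The libraries also differed in general level. Over 8504 genes of at least 10 CPM on average, LNCaP-ENZ168 stood above VCaP parental by a median log2 ratio of 0.50 and above VCaP-ENZ48 by 0.62. TMM scaling shifted these medians by -0.79 and -0.52, median-of-ratios scaling by -0.70 and -0.48, and totals without mitochondrial and ribosomal protein genes by -0.13 and -0.24. The split of the set moved with them, from 115 LNCaP-higher and 79 VCaP-higher genes (59.3% LNCaP-higher) to 56 and 122 with TMM (31.5%). LNCaP-higher genes made up 33.3% with median-of-ratios scaling, where they numbered 58, and 50.9% with the reduced totals. Relative to the medians of all genes, 71 of the 115 LNCaP-higher genes and 79 of the 79 VCaP-higher genes remained. Under every scaling tried, 56 of the LNCaP-higher genes and 79 of the VCaP-higher genes were kept, and the direction of no named gene turned. Each scaling, like the medians, lowered LNCaP-ENZ168 against both VCaP libraries. The VCaP-higher genes could thus only gain in ratio, and keeping them is no support for them. Shifts of this size are also too small to turn an 8-fold ratio. Of the LNCaP-higher genes named below, ACKR3, ATP11A, BEX2, CDC42BPA, COL6A1, CPE, CSAG1, EPHA3, ERBB2, ERBB3, FN1, IGF2R, KLK3, MT-TP, NEIL2, NFAT5, NRP1, PPP2R5A, QSOX1, SNAP47, UFL1 and VTA1 fell short of 8-fold or of 50 CPM under at least 1 scaling.

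**Figure D1:**
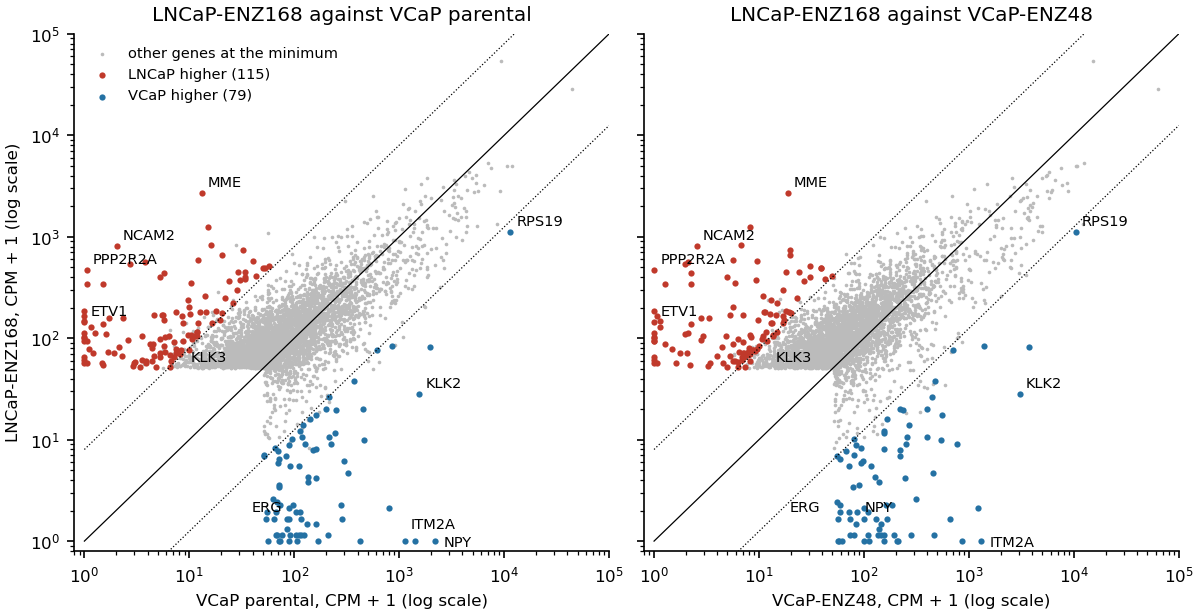
CPM + 1 in LNCaP-ENZ168 (vertical, log scale) against CPM + 1 in VCaP parental (left) and VCaP-ENZ48 (right, both log scale) for the 4127 genes at the minimum. The solid line marks equal levels and the dotted lines an 8-fold difference, and the 115 LNCaP-higher genes (red) and 79 VCaP-higher genes (blue) lie outside the dotted lines in both panels or, where the added 1 CPM narrows the ratio of a gene near 8-fold, just inside them.

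LNCaP-higher genes were led by PPP2R2A, a regulatory subunit of protein phosphatase 2A (chr8:26291508-26372680). Its level was 468 CPM in LNCaP-ENZ168 (95% interval 451 to 485, 2954 UMIs), 0.0512 CPM in VCaP parental (1 UMI) and 0 in VCaP-ENZ48. The ratio to VCaP parental was 9131, with an interval of 1638 to 360800 because it rests on 1 UMI. NCAM2, a neural cell adhesion molecule, stood at 807 CPM against 1.02 and 1.54 CPM, a 525-fold ratio to the nearer VCaP library (346 to 838). These genes were thus among the most abundant of the set in LNCaP and almost unread in VCaP.

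The others at the top were of varied function. BNIP3L, a mitochondrial receptor for mitophagy, gave 339, 0.0512 and 0.28 CPM (LNCaP-ENZ168 first, then VCaP parental, then VCaP-ENZ48, an order kept throughout). ADGRG6, an adhesion G protein-coupled receptor, gave 534, 1.69 and 0.979 CPM. The sialyltransferase ST3GAL1 gave 338, 0.512 and 1.26 CPM. The smallest of their ratios to the nearer VCaP library was that of ST3GAL1, 269 (170 to 454).

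MME had the highest CPM of all LNCaP-higher genes. It encodes neprilysin, a cell-surface peptidase, and reached 2673 CPM (2633 to 2713, 16874 UMIs) against 12.1 and 17.8 CPM, a 150-fold ratio (132 to 170). MAP1B, a microtubule-associated protein, followed with 1252, 14 and 7.27 CPM, and ATP1B1, a subunit of the sodium pump, with 818, 15.1 and 5.66 CPM. All 3 were readily counted in VCaP, with at least 81 UMIs in each library.

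Of the 115 LNCaP-higher genes, 9 had 0 UMIs in both VCaP libraries. They were the membrane-anchored matrix metalloproteinase MMP16, the ETS factor ETV1, SH3BGRL, the cancer-testis genes MAGEA3, MAGEA12 and CSAG1, CSMD1, the ephrin receptor EPHA3 and 1 gene on chromosome Y that is not named here. ETV1 (chr7:13891229-13991425) gave 143 CPM in LNCaP-ENZ168 (134 to 152, 901 UMIs), which is at least 680-fold above VCaP-ENZ48. MMP16 gave 184 CPM, at least 880-fold above. The neighbour of ETV1, DGKB, a diacylglycerol kinase picked after its values were seen, was under the minimum at 10.9 CPM against 0.0512 and 0.0699 CPM.

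**Figure D2:**
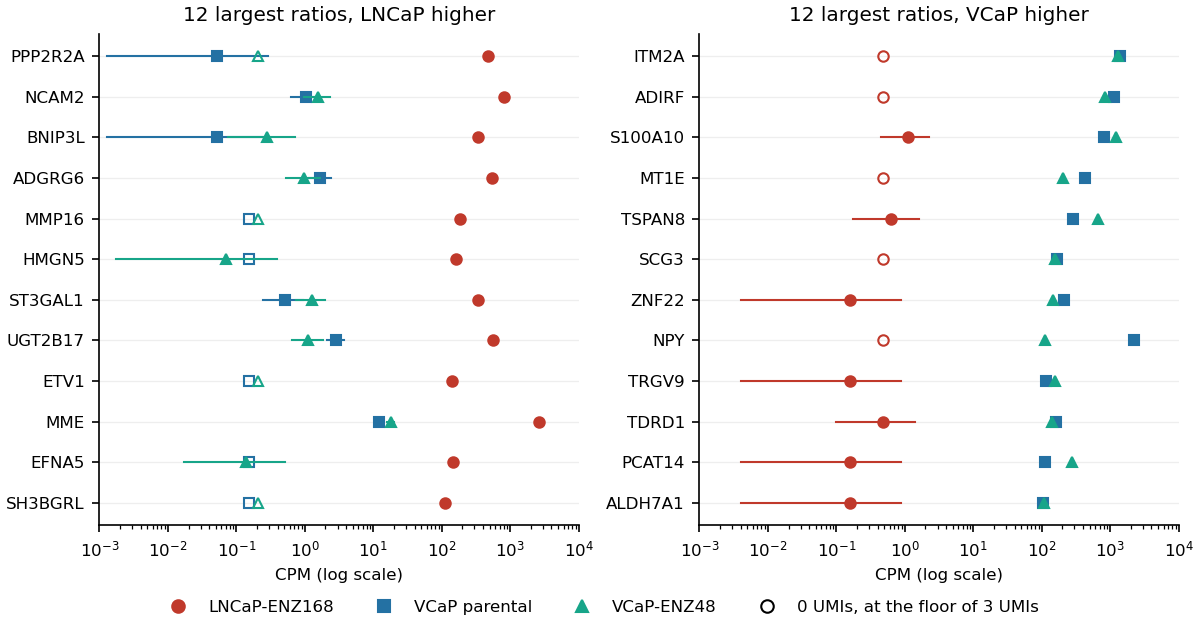
CPM (log scale) of the 12 genes in each direction with the largest ratio of CPM + 1 between LNCaP-ENZ168 and the nearer VCaP library, with exact Poisson 95% intervals as bars, and open symbols at the floor of 3 UMIs for a library with 0 UMIs. The 24 genes were chosen for these ratios, so the gap between the levels of the 2 lines follows from the choice. The VCaP libraries lie farthest apart for NPY among the VCaP-higher genes.

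Among the remaining leaders, USP10, a deubiquitinating enzyme, was at 127 CPM against 0.154 and 0.14 CPM, and the RNA-binding protein QKI at 76.8 CPM against 0.102 and 0.49 CPM. The coagulation inhibitor TFPI was at 435 CPM against 4.77 and 1.26 CPM. NIPSNAP3A was at 665 CPM against 19.6 and 18.6 CPM and the mitochondrial tRNA MT-TP at 374 CPM against 29.3 and 8.39 CPM. Over all 115 LNCaP-higher genes, the share of LNCaP-ENZ168 cells with a UMI at 2000 UMIs per cell ranged from 8.27% to 95.9% with a median of 19.6%, and the medians in VCaP parental and VCaP-ENZ48 were 0.802% and 0.982%. Their summed level was 25720 CPM in LNCaP-ENZ168 against 1037 and 959 CPM.

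UGT2B17 and UGT2B15, enzymes that inactivate steroids, attach glucuronic acid to androgens, which makes them soluble for excretion. UGT2B17 was at 566, 2.82 and 1.12 CPM and UGT2B15 at 351, 9.43 and 4.96 CPM in the order used above, ratios of 201 (154 to 267) and 37.2 (32 to 43.5) to VCaP parental. Of a steroid metabolism list, 0 of 2 genes at the minimum in VCaP were VCaP-higher (3.28% over all genes). Of the 4 that reached 50 CPM in LNCaP, only UGT2B17 and UGT2B15 were LNCaP-higher (2.95% over all genes). Their relatives UGT2B10, UGT2B11 and UGT2B28 stayed at 5.07 CPM or less in each library, and HSD17B11, a steroid dehydrogenase, was higher in VCaP without reaching 8-fold in both libraries, at 8.55, 90 and 52.7 CPM. Both genes are near-identical copies, so their counts cannot be fully told apart.

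Cancer-testis genes are normally read in the germ line. Of 49 listed, 4 reached 50 CPM in LNCaP-ENZ168 and 4 of these belonged to the set as LNCaP-higher genes (2.95% over all genes). MAGEA3 gave 101 CPM, MAGEA12 93.8 CPM and CSAG1 59.2 CPM, all against 0 UMIs in VCaP, and PRAME 158 CPM against 1.33 and 2.31 CPM. Below the minimum, MAGEA10 (42.9 CPM), MAGEA6 (42.3 CPM) and MAGEA4 (10.1 CPM) were also at 0 in both VCaP libraries. SSX3, of the same list and also below the minimum, had the opposite pattern with 0 UMIs in LNCaP-ENZ168 and 6.92 and 9.02 CPM in VCaP. The MAGEA genes are closely similar in sequence, and reads could be split among them. VCaP had MAGEH1 instead, a related gene of broad expression, at 0 UMIs in LNCaP-ENZ168 and 71.3 and 55 CPM in the VCaP libraries.

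A list of growth-signalling genes (receptors, ligands and inhibitors) gave 5 LNCaP-higher and 2 VCaP-higher genes among 13 at the minimum (4.7% over all genes). The receptor tyrosine kinase ERBB2 was at 57.8 CPM against 2.05 and 5.24 CPM, and its partner ERBB3 at 70.6 against 4.3 and 6.22 CPM. NRP1, a co-receptor for vascular endothelial growth factor, was at 184 CPM against 17 and 16.9 CPM. The ephrin ligand EFNA5 was at 146 CPM against 0 and 0.14 CPM, and the ephrin receptor EPHA3 at 56.6 CPM against 0 in both. In VCaP a different ephrin receptor, EPHB6, was at 63.6 and 99.9 CPM against 0.634 CPM, and ID4, an inhibitor of helix-loop-helix factors, at 83.6 and 138 CPM against 0.317 CPM.

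Fibronectin (FN1) was at 53.7 CPM against 0.512 and 1.19 CPM, and the collagen chain COL5A2 at 69.7 against 0.922 and 0.769 CPM. COL6A1, the only other collagen gene at the minimum, was at 96.8 CPM against 4.3 and 9.65 CPM. NQO1, a quinone reductase, was at 182 CPM against 6.51 and 10.1 CPM. Of the 13 redox genes at the minimum it was the only member. The interferon list of 46 genes gave 0 members among 4 at the minimum. Both counts are near the share of 4.7% over all genes.

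With CPM scaling, VCaP-higher genes showed larger ratios as a group. The ratio of the nearer VCaP library over LNCaP-ENZ168 had a median of 50.8 and quartiles of 14.1 and 179 over the 79 genes, with zeros set to their bound. For the 115 LNCaP-higher genes the median was 15.5 and the quartiles 10.3 and 87.7. Of the latter, 59 lay between 8-fold and 16-fold, against 24 of the VCaP-higher genes. The floor of LNCaP-ENZ168 is higher than that of the VCaP libraries, so it allows smaller bounds. The sets also depend on the scaling (56 and 122 genes with TMM) and on the minimum asked of both VCaP libraries. The part of these in the contrast was not tested.

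ITM2A, an integral membrane protein (chrX:79360384-79367667), stood first. It had 0 UMIs in LNCaP-ENZ168 and reached 1396 CPM in VCaP parental (1379 to 1413, 27243 UMIs) and 1300 CPM in VCaP-ENZ48 (1281 to 1319, 18590 UMIs), at least 2736-fold above LNCaP. ADIRF, a regulator of fat cell differentiation, was at 0, 1141 and 852 CPM, at least 1793-fold above. The calcium-binding protein family member S100A10 was at 1.11, 800 and 1206 CPM. All were thus abundant in VCaP with and without drug and had at most 7 UMIs in LNCaP.

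Other large ratios belonged to the zinc finger gene ZNF22 (0.158, 209 and 144 CPM), ALDH7A1, an aldehyde dehydrogenase (0.158, 103 and 107 CPM), and TDRD1, a tudor-domain gene known from the germ line (0.475, 161 and 143 CPM). Each rests on 1 to 3 UMIs in LNCaP-ENZ168, so that the ratio of ZNF22, 910, has an interval of 163 to 35970. Albumin (ALB, 0.158, 124 and 78.7 CPM) and the homeobox gene HOXA9 (0.634, 83.8 and 72.4 CPM) were also VCaP-higher. The highest level of any VCaP-higher gene was that of RPS19, described below. Summed over the 79 genes the level was 1734 CPM in LNCaP-ENZ168 against 31650 and 35850 CPM.

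Of the 79 genes, 10 had 0 UMIs in LNCaP-ENZ168. Beside ITM2A and ADIRF these were the metallothionein MT1E (422 and 206 CPM in VCaP parental and VCaP-ENZ48), the secretory granule protein SCG3 (167 and 155 CPM), neuropeptide Y (NPY, 2212 and 110.1 CPM) and the calcium sensor SCGN (87.7 and 211 CPM). The glutamate receptor subunit GRIA2 (71.1 and 98.4 CPM), ERG, MAGEH1 and the mitochondrial pseudogene MTND3P19 completed them. ERG was at 105 CPM in VCaP parental (101 to 110, 2052 UMIs) and 57.1 CPM in VCaP-ENZ48 (53.2 to 61.1, 816 UMIs).

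Neuroendocrine genes, which serve neurosecretory granules and neuronal function, fell on both sides. All 5 genes of the list that reached 50 CPM in both VCaP libraries were VCaP-higher: NPY, SCG3, SCGN, chromogranin B (CHGB, 0.158, 75.6 and 192 CPM) and the ubiquitin hydrolase UCHL1 (0.95, 111 and 109 CPM). Over all genes, 3.28% of those at the minimum in VCaP were VCaP-higher and 2.95% of those in LNCaP were LNCaP-higher. The 2 list genes that reached 50 CPM in LNCaP were LNCaP-higher. These were carboxypeptidase E (CPE), which trims prohormones, at 106, 9.38 and 12.7 CPM, and the synaptotagmin SYT4 at 361, 22.8 and 25.9 CPM. A separate list of 8 neuroendocrine markers, which contains CHGB and SCG3, summed to 26.3, 291 and 427 CPM. Of those markers INSM1 stayed at 2.36 CPM or less, and CHGA was at 0, 15.1 and 32.2 CPM. The part of such a cell state in the set was not tested.

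In a list of secreted products of glandular epithelium, 6 of the 10 genes at the minimum were members (4.7% over all genes). All 6 were VCaP-higher, NPY among them, but the list did not hold KLK3, which was LNCaP-higher. List genes that were no members went both ways, with AZGP1 at 13.9, 0.717 and 1.47 CPM and SCGB2A1 at 0.158, 24 and 36.5 CPM. PLA2G2A, at 80.2, 30.8 and 580 CPM, lay between the VCaP libraries in LNCaP-ENZ168. AGR2, a disulfide isomerase of mucus-secreting cells, was at 8.87, 457 and 544 CPM. The cysteine-rich secretory protein CRISP3 was at 1.27, 276 and 161 CPM, apolipoprotein D (APOD) at 5.23, 298 and 96.6 CPM and clusterin (CLU) at 9.5, 119 and 257 CPM. Prostatic acid phosphatase (ACPP) was at 80.8, 1959 and 3767 CPM, and it remained well counted in LNCaP with 510 UMIs. SPON2, another secreted protein of the list, was no member at 1456, 1251 and 1776 CPM.

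Adhesion and other surface genes of VCaP included TSPAN8, a tetraspanin, at 0.634, 284 and 665 CPM, CD24 at 9.66, 215 and 395 CPM, and CADM1 at 11.2, 113 and 155 CPM. On the LNCaP side the adhesion list gave NCAM2 alone of 16 at the minimum (2.95% over all genes), against 3 of 13 in VCaP (3.28%). Epithelial CDH1 (181, 56.7 and 65.7 CPM) was no member, nor was EPCAM (173, 428 and 325 CPM). Among noncoding RNAs of the prostate, PCAT14 was at 0.158, 110.3 and 278 CPM and SNHG5 at 76 CPM against 612 and 702 CPM.

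The ribosomal protein genes RPS19 and RPS27 were VCaP-higher. RPS19 gave 1115 CPM in LNCaP-ENZ168 against 11410 and 10370 CPM, and RPS27 82.7 CPM against 844 and 1398 CPM. In all, 6 of the 82 ribosomal protein genes and pseudogenes at the minimum were members (4.7% over all genes). Such genes have near-identical copies across the genome, so their counts depend on how multiply mapped reads were treated, and the part of that in these values was not tested. The T cell receptor gamma segments TRGC1 (0.634, 115 and 128 CPM) and TRGV9 (0.158, 115 and 155 CPM) were VCaP-higher too. The immune marker list summed to 0.158, 0.461 and 0.629 CPM.

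Androgen-responsive genes did not follow 1 direction. Of 21 at the minimum, 4 were VCaP-higher (ACPP, KLK2, HPGD and TRPM8) and 1 was LNCaP-higher (KLK3), while 16 were no members. Over all genes at the minimum, 4.7% were members. HPGD, which degrades prostaglandins, was at 1.27, 95.4 and 185 CPM, and TRPM8, a cold-sensing channel, at 0.95, 103 and 85.2 CPM. FOLH1, the prostate-specific membrane antigen, was listed among cell-surface targets and not among these genes. It was no member at 1009, 315 and 710 CPM.

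The kallikreins KLK3 (prostate-specific antigen) and KLK2 are secreted proteases that lie side by side on chromosome 19 and are both textbook targets of androgen. KLK3 (chr19:50854915-50860764) was higher in LNCaP-ENZ168, at 91.9 CPM against 7.64 and 10.9 CPM, and was found in 10.1% of LNCaP cells thinned to 2000 UMIs against 1.3% and 1.85% of VCaP cells. It reached 11 UMIs in 1 such LNCaP cell. With each of the other scalings KLK3 fell short of the rule, so its place in the set is marginal. KLK2 (chr19:50861568-50880567) was higher in VCaP, at 27.1 CPM against 1554 and 3053 CPM, and was found in 4.24% of LNCaP cells against 88.1% and 96.5%. KLK4, a kallikrein farther along, was no member at 174, 197 and 308 CPM. The genes are close relatives, and reads shared between them could be split or dropped in counting. The promoter windows of KLK3 and KLK2, 250 bases before to 50 after the RefSeq start on GRCh38.p14, are shown because neighbours of like sequence differed in opposite directions. The RefSeq start of KLK2 lies inside the GENCODE span given above. Capitals mark matches to AGAACA, letters of androgen response elements, and to TATAAA, the TATA box, on either strand.
KLK3, chr19:50854665-50854964, forward strand: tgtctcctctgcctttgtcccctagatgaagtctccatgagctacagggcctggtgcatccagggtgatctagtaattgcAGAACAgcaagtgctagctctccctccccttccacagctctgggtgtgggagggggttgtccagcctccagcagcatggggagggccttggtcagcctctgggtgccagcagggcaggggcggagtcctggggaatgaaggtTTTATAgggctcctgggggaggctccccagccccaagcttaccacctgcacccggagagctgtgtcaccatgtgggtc
KLK2, chr19:50873189-50873488, forward strand: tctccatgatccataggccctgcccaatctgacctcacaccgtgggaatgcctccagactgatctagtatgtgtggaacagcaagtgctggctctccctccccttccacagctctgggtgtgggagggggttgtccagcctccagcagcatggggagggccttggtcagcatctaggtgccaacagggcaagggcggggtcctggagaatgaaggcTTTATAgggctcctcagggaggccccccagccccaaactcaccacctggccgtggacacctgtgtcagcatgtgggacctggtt
Aligned end to end, 245 of 293 paired bases were identical (83.6%). Both windows held TTTATA, the reverse complement of TATAAA, starting 28 bases before the start in KLK3 and 34 bases before it in KLK2. The exact letters AGAACA were in KLK3 only, 170 bases before its start. The paired letters in KLK2 were GGAACA, by the substitution A81G, counted from the 5′ end of the KLK3 window. An exact match is a narrow search, and whether KLK2 has an androgen response element there was not tested. Among all 35116 promoter windows in the RefSeq table, 14.8% held AGAACA and 11.5% held TATAAA on either strand, and neither motif overlapped the other here. GGAAGT, letters of an ETS site, was in 22.8% of all windows and in neither of these. A window was found for 81 of the 115 LNCaP-higher and 48 of the 79 VCaP-higher genes, 66.5% of the set, which is too few for a comparison of promoters over the set.

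Position in the genome was not used to choose the genes, and no test was made of it. Of the 108 LNCaP-higher genes placed on chromosomes 1 to 22 or X, 27 had another LNCaP-higher gene as the next gene at the minimum (25%), against 5.3% of all 4039 such genes. For VCaP-higher genes it was 13 of 75 (17.3%) against 3.66%. When every gene of at least 10 CPM counted as a neighbour, the shares were 15.7% and 12% against 2.3% and 1.61%. Some neighbours are duplicated or overlapping genes. The genes described around each place were picked after their values were seen.

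On the X chromosome, HMGN5 (a nucleosome-binding protein, 163 CPM against 0 and 0.0699 CPM) and SH3BGRL (112 CPM against 0 in both) were neighbours transcribed in opposite directions from starts 189 bases apart. A second such pair was CSAG1 and MAGEA12, where RefSeq has starts of MAGEA12 at 36 and 141 bases from that of CSAG1. The windows of SH3BGRL and CSAG1 are shown because each spans both starts of its pair, and capitals run from the first base of the partner gene (for MAGEA12 the nearer start) to the first base of the named gene.
SH3BGRL, chrX:81201852-81202151, forward strand: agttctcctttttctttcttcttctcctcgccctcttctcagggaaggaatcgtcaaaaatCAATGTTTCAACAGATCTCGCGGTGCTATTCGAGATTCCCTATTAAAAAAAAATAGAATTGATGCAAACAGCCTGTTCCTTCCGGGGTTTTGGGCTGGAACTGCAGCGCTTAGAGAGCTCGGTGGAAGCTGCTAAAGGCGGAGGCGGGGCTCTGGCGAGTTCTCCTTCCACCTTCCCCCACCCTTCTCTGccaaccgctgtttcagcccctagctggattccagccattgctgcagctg
CSAG1, chrX:152733672-152733971, reverse strand: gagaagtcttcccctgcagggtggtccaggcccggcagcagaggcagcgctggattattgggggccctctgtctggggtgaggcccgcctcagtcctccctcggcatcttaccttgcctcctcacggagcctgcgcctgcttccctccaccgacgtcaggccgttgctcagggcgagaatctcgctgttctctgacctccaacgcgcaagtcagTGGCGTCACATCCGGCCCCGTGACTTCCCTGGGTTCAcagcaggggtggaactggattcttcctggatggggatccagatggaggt
Among genes of at least 10 CPM, the flanking BRWD3 was at 15.1, 9.89 and 7.97 CPM and RPS6KA6 at 20.4, 10.2 and 16.9 CPM. The absence or near-absence of UMIs in VCaP thus covered SH3BGRL and HMGN5 and not the nearest such genes. Genes of lower level between them were not examined. ITM2A, the first of the VCaP-higher genes, was the next gene of at least 10 CPM beyond BRWD3 and had the opposite direction.

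The MAGEA3, CSAG1 and MAGEA12 genes stood in a row on X, with MAGEA4 and MAGEA10 before and MAGEA6 after them, all at 0 in VCaP. Among genes of at least 10 CPM, the bounding VMA21 (50 CPM in LNCaP-ENZ168, 37.6 and 26.6 CPM in VCaP) and CETN2 (65.1, 55.1 and 46.4 CPM) were counted in every library. Elsewhere on X, BEX2 (163, 7.48 and 15.8 CPM) and TCEAL9 (92.5, 0.0512 and 0 CPM) were LNCaP-higher neighbours, while the related BEX1 was VCaP-higher at 7.13, 160 and 155 CPM.

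**Figure D3:**
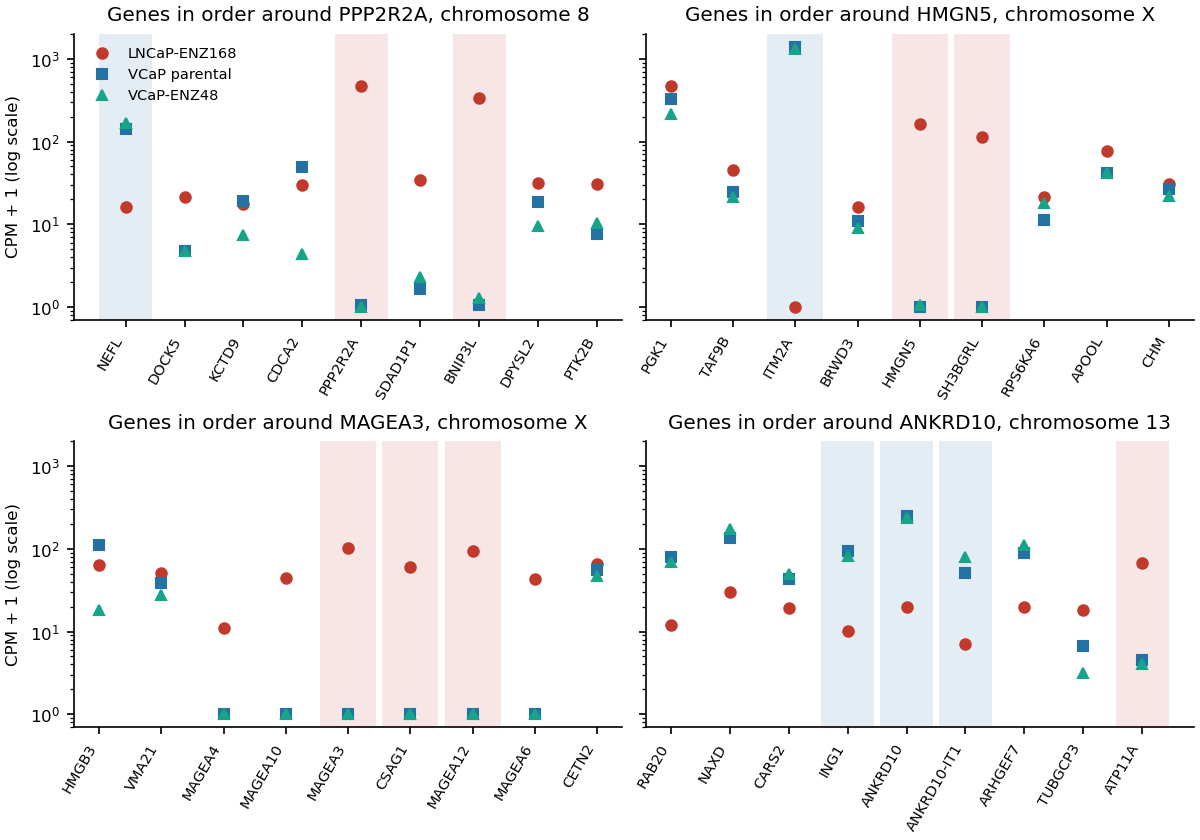
CPM + 1 (log scale) in the 3 libraries for genes of at least 10 CPM in their order along the chromosome around PPP2R2A, HMGN5, MAGEA3 and ANKRD10, with no distance scale. Shaded columns are LNCaP-higher (red) or VCaP-higher (blue) genes, and PPP2R2A, BNIP3L, HMGN5, SH3BGRL and the MAGEA genes sit at or near the bottom in both VCaP libraries between neighbours that do not.

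By chromosome, LNCaP-higher genes made up 8.09% of the genes at the minimum on X (11 of 136) and 6.92% on 8 (11 of 159). Over all they made up 2.67%. VCaP-higher genes made up 7.27% on 21 (4 of 55), 5.26% on 13 (3 of 57) and 5.06% on 7 (9 of 178), compared with 1.86% over all. On 21 the share of LNCaP-higher genes was 5.45% (3 of 55). The 3 VCaP-higher genes on 13 were the neighbours ING1, ANKRD10 and ANKRD10-IT1 described below. PPP2R2A and BNIP3L lay next to each other on chromosome 8, with a pseudogene, SDAD1P1, between them. That pseudogene had 33.3 CPM in LNCaP-ENZ168 and 0.666 and 1.33 CPM in VCaP, so 3 genes in a row were near 0 in VCaP. The next genes of at least 10 CPM on either side were counted in all libraries. CDCA2 before them was at 28.5, 48.5 and 3.36 CPM and DPYSL2 after them at 30.1, 17.7 and 8.53 CPM. Further out NEFL, a neurofilament protein, was VCaP-higher at 15, 139 and 166 CPM.

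VCaP-higher neighbours included a stretch on chromosome 13. ING1, a tumour suppressor of the ING family, was at 9.19, 93.1 and 79.8 CPM, ANKRD10 at 18.5, 246 and 234 CPM and ANKRD10-IT1, a transcript within it on the same strand, at 6.02, 50.2 and 78.6 CPM. The genes around them also had higher levels in VCaP, though under 8-fold in at least 1 library or under the minimum, with RAB20 at 11.1, 78.4 and 67.8 CPM, NAXD at 29, 136 and 174 CPM and ARHGEF7 at 18.5, 87.5 and 110 CPM. Next came TUBGCP3 at 17.3, 5.74 and 2.17 CPM and then ATP11A, a phospholipid flippase that was LNCaP-higher at 65.6, 3.59 and 3.01 CPM. Another pair, the imprinted neighbours SGCE (0.634, 52.7 and 56.1 CPM) and PEG10 (3.64, 320 and 453 CPM) on chromosome 7, was VCaP-higher between CASD1 (21.1, 13.3 and 16.5 CPM) and PPP1R9A (25.3, 41.6 and 57.6 CPM).

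Other LNCaP-higher neighbours were EFNA5 with FBXL17, an F-box protein (399, 4.25 and 3.99 CPM), on chromosome 5. On chromosome 6, ADGRG6 lay beside VTA1 (492, 51 and 37.8 CPM), MANEA, a mannosidase of the Golgi (739, 31.7 and 18.9 CPM), beside UFL1 (408, 42.2 and 49.1 CPM). NQO1 lay beside the osmotic stress factor NFAT5 (115, 10.7 and 14 CPM) on chromosome 16. Beside USP10 lay ZDHHC7, under the minimum at 20.4, 0.307 and 0.35 CPM. Within each pair the ratios were of different size, and copy number was not measured in these libraries. RPS19 and the noncoding PCAT19 (1.11, 87.2 and 99.5 CPM) were VCaP-higher neighbours on chromosome 19. Further pairs were next to each other among genes of at least 50 CPM but had a gene of at least 10 CPM between them. On the LNCaP side these were KDM6A, a histone demethylase (235, 8.71 and 12 CPM), with the monoamine oxidase MAOA (572, 39.6 and 8.53 CPM), the receptor IGF2R (74.6, 7.28 and 7.69 CPM) with QKI, CSMD1 with the DNA glycosylase NEIL2 (67.5, 5.58 and 6.78 CPM) and CDC42BPA with SNAP47 (68.1, 7.22 and 7.27 CPM). On the VCaP side they were CD24 with CRYBG1 (1.43, 67.5 and 54.5 CPM) and PCP4 with FAM3B (2.38, 70.7 and 76.8 CPM).

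Genes of the same family were sometimes used in opposite ways by the lines. Among the pairs, chosen after their values were seen, were ETV1 in LNCaP and ERG in VCaP, BEX2 and BEX1, KLK3 and KLK2, and the synaptic active-zone proteins RIMS1 (167, 3.59 and 6.08 CPM) and RIMS2 (0.158, 66.7 and 72.5 CPM). FOXA1 (153, 124 and 143 CPM), HOXB13 (390, 190 and 382 CPM) and GATA2 (269, 133 and 343 CPM), which are transcription factors of prostate epithelium, were no members. Of 15 lineage factors at the minimum only ETV1, ERG and SIM2 (6.65, 69.6 and 66.8 CPM) belonged to the set, compared with 4.7% over all genes. SOX9, which reached 50 CPM in VCaP-ENZ48 only, was at 5.39, 23.6 and 65.3 CPM, and below the minimum SATB1 was at 0, 5.53 and 36.9 CPM and BCL11A at 0.158, 8.15 and 10.2 CPM. Keratins (2 at the minimum), proteasome subunits (32) and G2M phase genes (28) gave 0 members. For lists of these sizes that is near the share of 4.7% over all genes.

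In single cells the gene sets were described by their UMIs per cell. The genes were selected on sums over these same cells, so a separation of the lines follows from the rule and is no support for the sets. Each cell was thinned to 2000 UMIs, which left 943 LNCaP, 997 VCaP parental and 917 VCaP-ENZ48 cells and set aside 1, 0 and 30 shallower cells. UMIs of LNCaP-higher genes ranged from 18 to 112 with a median of 51 in LNCaP-ENZ168 cells, from 0 to 8 with a median of 2 in VCaP parental cells and from 0 to 10 with a median of 2 in VCaP-ENZ48 cells. UMIs of VCaP-higher genes had a lowest, median and highest value of 0, 3 and 14 in LNCaP-ENZ168, of 27, 62 and 121 in VCaP parental and of 32, 71 and 226 in VCaP-ENZ48. At this depth the ranges of the lines did not overlap on either measure. Without the ribosomal, mitochondrial and pseudogene members they met for the VCaP-higher genes, which reached 7 UMIs in LNCaP-ENZ168 and were as low as 6 in VCaP parental. In cells that were not thinned they overlapped on both measures. There the LNCaP-higher genes were as low as 46 UMIs in LNCaP-ENZ168 and as high as 110 and 113 in the VCaP libraries, and the VCaP-higher genes as high as 102 UMIs in LNCaP-ENZ168 and as low as 27 in VCaP-ENZ48.

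**Figure D4:**
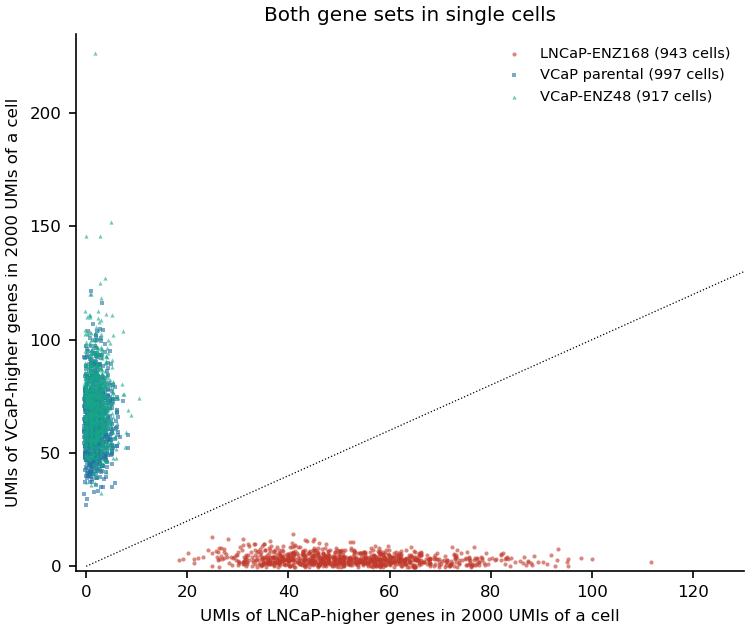
UMIs of the LNCaP-higher genes (horizontal) and of the VCaP-higher genes (vertical) in each cell after thinning to 2000 UMIs, with points moved by under 0.5 UMIs so that they do not cover each other. LNCaP-ENZ168 cells lie along the horizontal axis from 18 to 112 UMIs and cells of both VCaP libraries along the vertical axis from 27 to 226 UMIs, on opposite sides of the dotted line of equality.

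Single genes differed in how evenly they were spread over the cells of their line. MME was found in 95.9% of LNCaP-ENZ168 cells at 2000 UMIs, with 5.68 UMIs per cell that had any, against 2.11% and 3.82% of VCaP cells. SYT4 was found in 22.7% of LNCaP cells, with 3.12 UMIs per such cell and up to 20 in a cell, and 77.8% of its UMIs came from the tenth of cells with most. For UGT2B15, with 717 such UMIs in all against 668 of SYT4, that share was 53.4% and the share of cells 37.5%. SYT4 was thus concentrated in fewer cells than a gene of like sum. GDF15, a stress-induced cytokine, also reached 23 UMIs in a cell, with 48.8% of cells having any.

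In VCaP, ITM2A was found in 87% of VCaP parental and 83.6% of VCaP-ENZ48 cells against 0% of LNCaP cells, and ADIRF in 85.8% and 76.9% against 0%. CRISPLD1, a secreted CRISP-family protein, was found in 7.72% of VCaP parental and 34.1% of VCaP-ENZ48 cells, and reached 66 of 2000 UMIs in 1 VCaP-ENZ48 cell. NPY was found in 81.4% of VCaP parental but 13.2% of VCaP-ENZ48 cells. CRISPLD1 and NPY thus belonged to the set in both VCaP libraries at very different levels.

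The VCaP libraries were also compared with each other. Both entered the rule, which asks for 8-fold in each, so the gap between the lines is no measure for the difference between them. The log2 ratio of VCaP-ENZ48 over VCaP parental (of CPM + 1) had a median of 0.07 over the LNCaP-higher genes and of 0.19 over the VCaP-higher genes, compared with -0.15 over all 4127 genes at the minimum. Among the 79 VCaP-higher genes, 13 were above 2-fold higher and 3 above 2-fold lower in VCaP-ENZ48. Of all 4127 genes, 140 (3.39%) and 249 (6.03%) were. A larger share of the VCaP-higher genes than of all genes was thus higher in VCaP-ENZ48, while the count of lower genes was near the share over all genes. The sets are unlike, since VCaP-higher genes had to reach 50 CPM and 8-fold in both VCaP libraries and the 4127 genes did not. Of the 115 LNCaP-higher genes, 6 were higher and 7 lower. Many of these 115 have few CPM in VCaP, where the added 1 CPM draws the ratio toward no difference. Over the 7 that were lower, UMIs ranged from 63 (SLC39A8) to 772 (MAOA) in VCaP parental and from 4 to 122 in VCaP-ENZ48, for the same genes.

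NPY had the lowest ratio, with 2212 CPM in VCaP parental and 110.1 CPM in VCaP-ENZ48 (log2 ratio -4.32), followed by APOD at -1.61 and MT1E at -1.03. The highest ratios were those of PCP4, a calmodulin-binding peptide, with 89.5 and 460 CPM (2.35), CRISPLD1 with 61 and 313 CPM (2.34) and NAALAD2, a peptidase related to FOLH1, with 222 and 767 CPM (1.78). ERG had a log2 ratio of -0.87 and KLK2 of 0.97. Among LNCaP-higher genes, the chemokine receptor ACKR3 had 0.666 and 6.78 CPM (2.22). The values were 4.66 and 13.5 CPM (1.36) for GRB10, 1.28 and 4.26 CPM (1.21) for QSOX1, 39.6 and 8.53 CPM (-2.09) for MAOA and 3.23 and 0.28 CPM (-1.72) for the zinc transporter SLC39A8. None of these differences took a gene out of the 8-fold range, since the rule required it in each library.

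**Figure D5:**
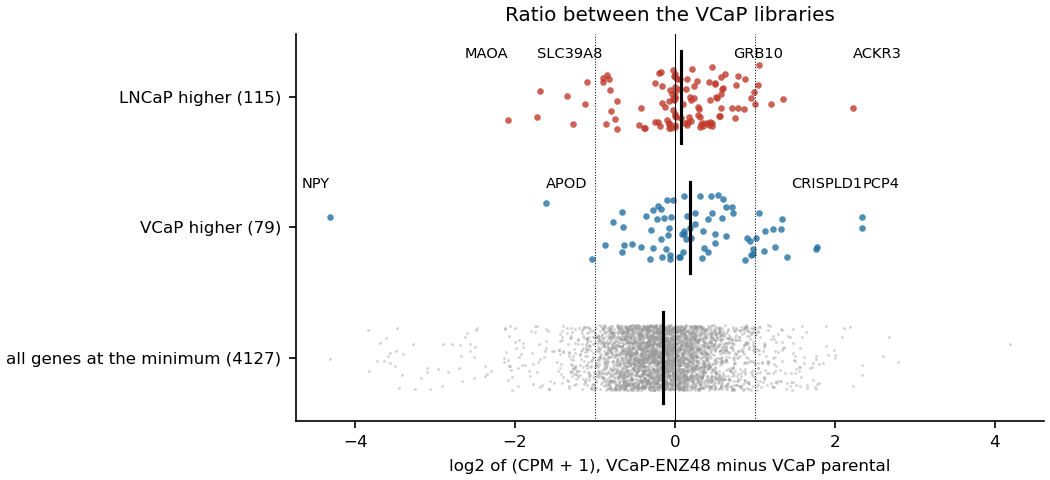
Log2 ratio of CPM + 1 in VCaP-ENZ48 over VCaP parental for the 115 LNCaP-higher genes, the 79 VCaP-higher genes and all 4127 genes at the minimum, with 1 point per gene, a black bar at the median and dotted lines at a 2-fold difference. Medians are 0.07, 0.19 and -0.15, and NPY lies apart at -4.32.

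At the threshold the set had no natural edge. Just inside on the LNCaP side lay CDC42BPA (8.2-fold) and PPP2R5A (8.16-fold), and just outside TBC1D7 (7.99-fold) and KLF9 (7.95-fold). On the VCaP side ANKRD10-IT1 (8.34-fold) and SNHG5 (8.05-fold) were inside, and the prostate noncoding RNA PART1 (7.88-fold) and SNHG6 (7.58-fold) outside. At 4-fold the counts were 318 and 128, and at 16-fold 56 and 55.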

How the data were processed

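The authors deposited UMI counts, not normalized, for 3 Drop-seq libraries of cell lines. They used STAR, Picard and the Drop-seq tools with GRCh38 and GENCODE, with an expectation of 1000 cells per sample. Cell filter thresholds for these libraries were not given in the sources used here. Gene coordinates here (GRCh38) come from a GENCODE version newer than theirs.

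Cells with at least 500 UMIs, 300 genes and at most 25% mitochondrial UMIs were kept, summed per library and scaled to CPM. Doublets were not called. A gene absent from a file counted as 0. Genes were chosen at 8-fold and 50 CPM. CPM carry exact Poisson and ratios exact conditional 95% intervals. A count of 0 was set to 3 UMIs for bounds. Log2 ratios used a pseudocount of 1 CPM.

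Members, 20 gene lists and 12 families were chosen with earlier results of these data known. Named genes were the 12 largest ratios (of CPM + 1) and 6 highest levels per direction, up to 4 members per list, the 3 largest and 3 smallest ratios between the VCaP libraries, runs of neighbours, the 2 genes on each side of the threshold, and ERG, KLK2 and KLK3. Members outside that rule (ALB, ATP11A, BEX1, CLU, COL6A1, GDF15, GRIA2, HOXA9, MAGEH1, MTND3P19, NEFL, RIMS1, RIMS2, TFPI, UCHL1, USP10) and genes that are no members were named after their values were seen. Some genes are not reported here. The rule was tested on simulated data. Alternatives covered filters, depth, scaling (TMM from edgeR 4.0.16), thresholds and neighbours. Python 3.11.15 was used. Promoter sequences are from RefSeq (GRCh38.p14).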

Additional observations from a re-analysis of the deposited data

How the results depend on the processing

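The counts of 115 LNCaP-higher and 79 VCaP-higher genes moved by over 1.5 times under these settings: TMM scaling gave 56 and 122, median-of-ratios scaling 58 LNCaP-higher genes, a 4-fold threshold 318 and 128, a 16-fold threshold 56 LNCaP-higher genes, a minimum of 20 CPM 238 and 161, and a minimum of 100 CPM 68 and 41. Fewer or more genes pass a changed threshold or minimum by construction, and the cause of the shift with scaling was not tested. The share of LNCaP-higher genes beside another was 15.7% when genes of at least 10 CPM counted as neighbours. The other settings (cell filters, equal weighting of cells, thinning, either portion of the barcodes, cells without a G2M UMI, totals without mitochondrial and ribosomal protein genes, 50 CPM in 1 VCaP library or in their mean, and, chosen after seeing the data, only barcodes ending in a base) gave 112 to 121 LNCaP-higher and 76 to 118 VCaP-higher genes. Cells without a G2M UMI numbered 40, 12 and 131, and 81 and 59 of the original genes were found again in them. Barcodes ended in N, not in a base, for 205 of 944 LNCaP-ENZ168, 859 of 997 VCaP parental and 820 of 947 VCaP-ENZ48 cells. Keeping only barcodes ending in a base left 739, 138 and 127 cells. The cause of this difference, which runs with the line, was not tested. Over 93 named genes, the log2 ratio of the lines was reversed in 0 cases and stayed at 1.96 or more in size. These genes were chosen at 8-fold on the same libraries, so that outcome is no support for them. No paired analysis was possible because only 1 library was made for a group. LNCaP-ENZ168 was the shallowest library, so ratios of VCaP-higher genes at 0 are bounded least closely.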
